A study of Homo sapiens with 6 samples.

Results

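Tissue-type splicing regulators are RNA-binding proteins whose levels differ between cell types and set which exons those cells keep. The 8 genes RBFOX2, CELF1, QKI, MBNL1, MBNL2, MBNL3, ESRP1 and ESRP2 were taken by symbol from the 58884 gene rows of each table. They were measured in the established colorectal cancer line HCT116 (human) 48 h after transfection with siMatrin3, a pool of siRNAs against the nuclear RNA-binding protein Matrin3, or with siCTRL, a negative control siRNA. Each group had 3 libraries of total RNA, described in the study's methods as biological triplicates. All 6 libraries come from this single line and knockdown reagent, so the groups differ in the siRNA transfected and share everything else that the labels name.

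RBFOX, CELF and MBNL proteins are best known from the switch of exon use as muscle, heart and brain mature, where CELF1 and MBNL1 often act on the same exons in opposite directions. QKI, which binds a short bipartite RNA element, acts in glia, muscle and cells that turn mesenchymal. ESRP1 and ESRP2 mark epithelial cells, where they maintain epithelial forms of FGFR2, CD44, CTNND1 and ENAH, and they are lost when epithelial cells become mesenchymal. Matrin3 is itself a splicing regulator, so whether its knockdown also moved the levels of these other regulators is a question that these tables can address for genes. They hold no values for single exons or isoforms.

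All 8 genes have several annotated isoforms, and the MBNL paralogues share short cassette exons, which are shown as background. These exons are shorter than the differences in mean length given below for MBNL1 and MBNL3, and their part in those was not tested. The 54-base exon, known to bear on the nuclear localisation of the protein, was read from GENCODE release 44 transcripts on hg38 at chr3:152446704-152446757 (plus strand, coding) in MBNL1 and at chr13:97356796-97356849 (plus strand) in MBNL2. It is part of 5 of 24 MBNL1 transcripts and 2 of 6 MBNL2 transcripts. Capitals mark the bases that the paralogues share, which are 45 of 54.
MBNL1, 54-base exon: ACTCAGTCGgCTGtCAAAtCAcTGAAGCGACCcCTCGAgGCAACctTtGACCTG
MBNL2, 54-base exon: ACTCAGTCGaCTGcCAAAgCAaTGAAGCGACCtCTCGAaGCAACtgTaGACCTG

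A 36-base exon further downstream lies at chr3:152455542-152455577 (plus strand) in MBNL1, at chr13:97365136-97365171 (plus strand) in MBNL2 and at chrX:132384663-132384698 (minus strand) in MBNL3. It is part of 9 of 24 MBNL1 transcripts, 3 of 6 MBNL2 transcripts and 9 of 11 MBNL3 transcripts. The 3 paralogues share 26 of its 36 bases, again in capitals.
MBNL1, 36-base exon: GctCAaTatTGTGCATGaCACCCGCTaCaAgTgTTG
MBNL2, 36-base exon: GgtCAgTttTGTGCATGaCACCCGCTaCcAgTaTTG
MBNL3, 36-base exon: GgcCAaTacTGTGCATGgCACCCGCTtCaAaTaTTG

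All 3 copies of the 36-base exon hold TGCATG, the DNA form of the element that RBFOX proteins bind, within the shared bases and on the transcribed strand. Among the 1638 distinct exons of 36 bases in GENCODE 44, 0.733% hold TGCATG on that strand and 1.40% hold it or its reverse complement CATGCA. Neither copy of the 54-base exon holds TGCATG or CATGCA, which occur in 2.16% of 2733 distinct exons of 54 bases. The match is a description of the sequence and says nothing of binding.

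Total expected counts were 6007630 to 7414040 in the siMatrin3 libraries and 4556658 to 8400412 in the siCTRL libraries. MATR3, the target, fell to 72.4, 67.9 and 71.4 CPM (expected counts brought by edgeR to a common library total) in siMatrin3 libraries, against 363, 343 and 330.2 CPM in siCTRL libraries (n = 3 each), a log2 fold change of -2.29 ± 0.06 SE with an adjusted p of 7.58e-11 in edgeR's quasi-likelihood test. ENSG00000280987, a second annotated protein-coding gene that shares 5141 exonic bases with MATR3 on the same strand, had a log2 fold change of -1.73 (adjusted p = 0.00329). The epithelial label was checked on its markers. EPCAM lay at 133 to 138 TPM in siMatrin3 libraries and 109 to 125 TPM in siCTRL libraries, and KRT8 at 446 to 454 TPM in siMatrin3 libraries and 408 to 449 TPM in siCTRL libraries. VIL1, CDH17 and LGALS4, markers of differentiated intestinal epithelium, were at 0.36 TPM or less in every library.

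Of the 8 regulators, all passed the filter on low counts, CELF1 and RBFOX2 were lower in siMatrin3 cells, ESRP2 was higher, and the other 5 did not pass the test (adjusted p under 0.05). Of all 14334 genes tested, 10.9% passed, with 5.68% higher and 5.18% lower, and the 3 of 8 regulators (1 higher and 2 lower) are to be read beside these shares. The fitted differences among the 8 on counts lay between -0.34 and 0.31 on the log2 scale, with a median of 0.07 beside -0.00065 over all genes. The median size without sign was 0.21 beside 0.16 over all genes. These values are from the fit on the group alone. With the replicate number as a block MBNL1 also passed as higher (edgeR adjusted p = 0.0121), and 15.8% of all genes passed. CPM values of the groups did not overlap for 4 of the 8, which also holds for 29.8% of all genes tested. In bulk RNA, fewer cells that express a gene and less of its RNA per cell cannot be told apart.

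**Figure D1:**
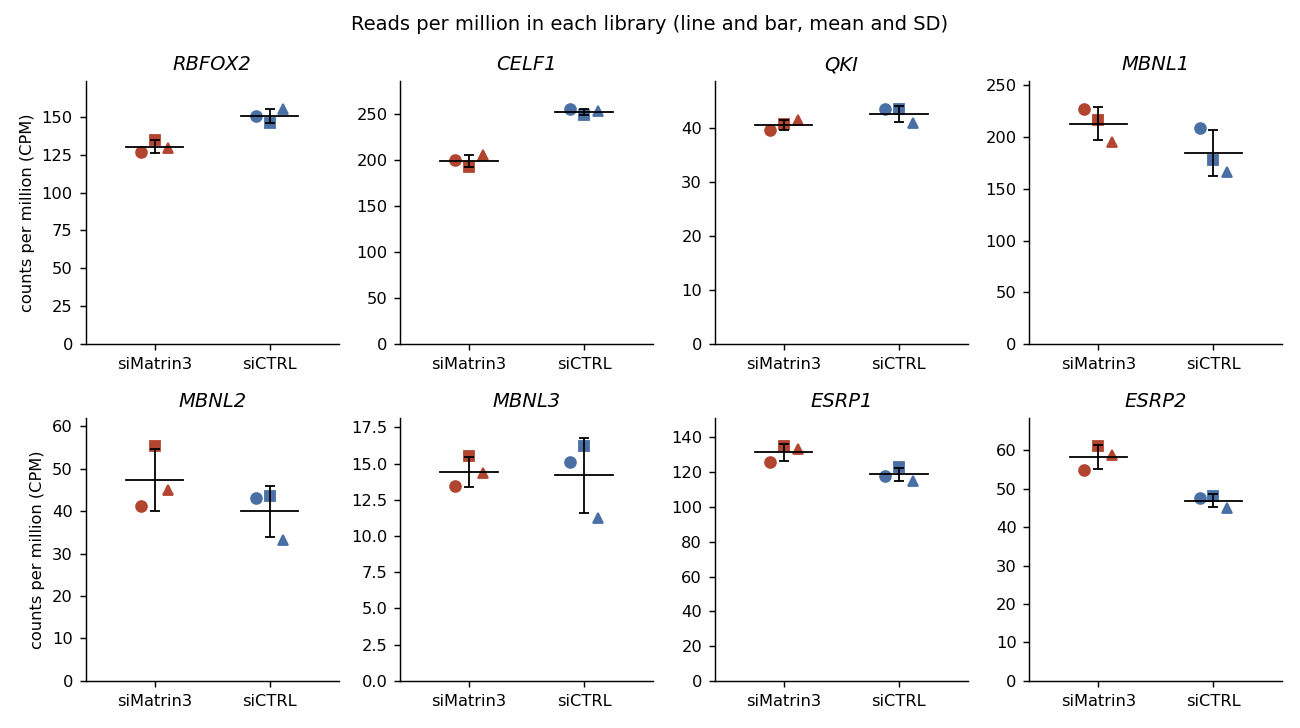
CPM (vertical axis, from 0) of the 8 regulators in each siMatrin3 library (left, red) and siCTRL library (right, blue), with the mean and SD of 3 libraries. Circles, squares and triangles are replicates 1, 2 and 3. CELF1 (193 to 206 CPM in siMatrin3, 249 to 256 CPM in siCTRL) and RBFOX2 (127 to 135 CPM in siMatrin3, 146 to 155 CPM in siCTRL) lay lower in every siMatrin3 library, and ESRP2 (54.9 to 61.1 CPM in siMatrin3, 44.9 to 48.2 CPM in siCTRL) and ESRP1 higher.

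CELF1, a binder of GU-rich RNA that acts on splicing in the nucleus and on mRNA decay in the cytoplasm, had the largest fitted difference of the 8 on counts with all 6 libraries, while with effective length as an offset those of MBNL3, ESRP2 and MBNL1, given below, were larger. It had 200.3, 193 and 206 CPM in siMatrin3 libraries, against 256, 249 and 254 CPM in siCTRL libraries. The groups lay far apart beside their spread, with means of 199.8 ± 6.48 CPM in siMatrin3 libraries and 253 ± 3.20 CPM in siCTRL libraries (SD, n = 3 each). The log2 fold change was -0.34 ± 0.05 SE (95% confidence interval -0.45 to -0.23, edgeR adjusted p = 0.00119), a level 20.9% lower. TPM is reads per length, brought to the same total in each library without edgeR's scaling. It gave the same order, with 50.7, 50.6 and 63.2 TPM in siMatrin3 libraries and 70.2, 68.5 and 68.5 TPM in siCTRL libraries. The 2 groups did not overlap in TPM either, although siMatrin3 replicate 3 stood above the other two (exact permutation p = 0.1, the smallest that 3 against 3 allow). The call was kept without any single library (adjusted p 0.00494 to 0.00945) and by DESeq2 (1.60e-05), and it was lost with effective length as an offset (-0.23, adjusted p = 0.269) and in limma on log2(TPM + 1) (-0.34, adjusted p = 0.130). CELF1 (hg38 chromosome 11, 47465933 to 47565569, minus strand) shares 140 and 234 exonic bases with PTPMT1 and NDUFS3 on the opposite strand, which were at -0.06 (adjusted p = 0.796) and 0.12 (adjusted p = 0.375).

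RBFOX2, which binds UGCAUG and promotes or blocks an exon depending on the side of the exon it binds, had 127, 135 and 129.6 CPM in siMatrin3 libraries, against 150.2, 146 and 155 CPM in siCTRL libraries. Reads were lower in all 3 siMatrin3 libraries, by 13.3% in the fit (log2 fold change -0.21 ± 0.06 SE, 95% confidence interval -0.33 to -0.08, edgeR adjusted p = 0.0343). In TPM the values overlapped, with 30.5, 36.2 and 34.5 TPM in siMatrin3 libraries and 36.3, 34.2 and 38.4 TPM in siCTRL libraries (exact permutation p = 0.4). With effective length as an offset the log2 fold change of RBFOX2 was 0.00 (95% confidence interval -0.20 to 0.20). The call on reads was also lost by DESeq2 (adjusted p = 0.0720), with no count filter (0.0932) and without siCTRL replicate 1, 2 or 3 or siMatrin3 replicate 1 or 3 (0.0564 to 0.136), and it was kept without siMatrin3 replicate 2 (0.0429).

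QKI was the gene of the 8 with the tightest CPM values in siMatrin3 libraries relative to their mean. It had 39.5, 40.6 and 41.3 CPM in siMatrin3 libraries, against 43.4, 43.4 and 40.9 CPM in siCTRL libraries. The groups overlapped through siCTRL replicate 3, and the log2 fold change of -0.07 ± 0.08 SE (95% confidence interval -0.24 to 0.09, edgeR adjusted p = 0.605) did not pass.

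The muscleblind paralogues bind YGCY elements and are sequestered by expanded CUG repeats in myotonic dystrophy. MBNL1, the most abundant of them here, had 227, 217 and 195 CPM in siMatrin3 libraries, against 209, 178 and 166 CPM in siCTRL libraries. The ranges overlapped, and in both groups the library numbered 1 was the highest and that numbered 3 the lowest. The log2 fold change was 0.21 ± 0.08 SE (95% confidence interval 0.04 to 0.39, edgeR adjusted p = 0.112). With the replicate number as a block, MBNL1 passed as higher (0.21 ± 0.05 SE, adjusted p = 0.0121), and it also passed with no count filter (adjusted p = 0.0121) and without siCTRL replicate 1 (0.30, adjusted p = 0.0296). Of all genes, 15.8% passed with the block, against 10.9% without it, and 5.77% of the 34319 genes that enter with no filter.

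MBNL2 had 41.3, 55.4 and 45.1 CPM in siMatrin3 libraries, against 43.2, 43.6 and 33.1 CPM in siCTRL libraries. Only the second siMatrin3 library and the third siCTRL library lay outside the range of 41.3 to 45.1 CPM that held the other 4, and the log2 fold change was 0.23 ± 0.12 SE (95% confidence interval -0.03 to 0.49, adjusted p = 0.271). MBNL3, the least abundant of the 8 and known to hold back muscle differentiation, had 13.4, 15.5 and 14.3 CPM in siMatrin3 libraries, against 15.1, 16.2 and 11.3 CPM in siCTRL libraries. Its siMatrin3 values lay inside the range of its siCTRL values, and the log2 fold change was 0.01 ± 0.15 SE (95% confidence interval -0.33 to 0.34, adjusted p = 0.986), with a sign that turned under 3 alternatives.

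ESRP2 was the 1 regulator that passed as higher. It had 54.9, 61.1 and 58.6 CPM in siMatrin3 libraries, against 47.5, 48.2 and 44.9 CPM in siCTRL libraries. All siMatrin3 values lay above all siCTRL values, and the fitted level was 23.8% higher (log2 fold change 0.31 ± 0.07 SE, 95% confidence interval 0.15 to 0.47, edgeR adjusted p = 0.0190). Its TPM values were also apart, though the first siMatrin3 library cleared the highest siCTRL library by little, with 21.4, 26.2 and 26.4 TPM in siMatrin3 libraries and 21.1, 20.8 and 21.4 TPM in siCTRL libraries (exact permutation p = 0.1). The fold change kept its size with effective length as an offset (0.33, adjusted p = 0.193) and in DESeq2 (0.31, adjusted p = 0.0655) and was 0.21 in limma on log2(TPM + 1) (adjusted p = 0.347). None of these passed, and the call was also lost when siCTRL replicate 3 (0.0891) was left out, or siMatrin3 replicate 2 (0.0659) or 3 (0.0659). ESRP2 (hg38 chromosome 16, 68229033 to 68238102, minus strand) shares 113 exonic bases with a lncRNA on the same strand, ENSG00000262160 (-0.84, adjusted p = 0.363), and 227 with NFATC3 on the opposite strand (0.10, adjusted p = 0.594).

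ESRP1, its paralogue, had 126, 135 and 133 CPM in siMatrin3 libraries, against 118, 123 and 115 CPM in siCTRL libraries. These reads did not overlap, yet the log2 fold change of 0.14 ± 0.06 SE (95% confidence interval 0.02 to 0.27) missed the threshold after adjustment over all genes (adjusted p = 0.147). In TPM ESRP1 overlapped, at 44.6, 47.2 and 42.1 TPM in siMatrin3 libraries and 50.4, 43.4 and 44.5 TPM in siCTRL libraries, and the sign turned (-0.043 on the log2(TPM + 1) scale). With effective length as an offset the sign of ESRP1 did not turn (0.06, edgeR adjusted p = 0.791).

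**Figure D2:**
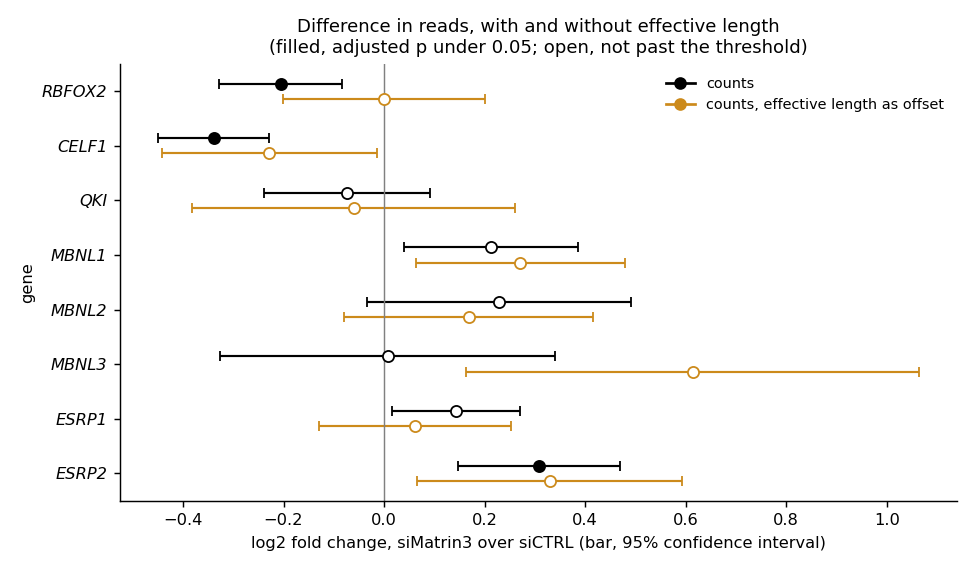
Log2 fold change of siMatrin3 over siCTRL for each regulator (points) with its 95% confidence interval (bars), from edgeR on counts (black) and with RSEM effective length as an offset (orange), with 3 libraries in each group. Filled points passed at an adjusted p under 0.05. CELF1, RBFOX2 and ESRP2 passed on counts and none of the 8 passed with the offset, where RBFOX2 lay at 0.00 and MBNL3 at 0.61.

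Effective length is RSEM's mean length of a gene's isoforms, weighted by their estimated abundance and shortened at the ends by the reads, and it changes when the estimated mix of isoforms changes. No gene of 12268 passed at an adjusted p under 0.05 in limma on log2 effective length, while 6.85% (840) had an unadjusted p under 0.05. 3 of the 8 regulators had such an unadjusted p, RBFOX2, MBNL1 and MBNL3. In all 3 the groups did not overlap, as for 11.0% of all genes, and all 3 were shorter in siMatrin3 cells, as for 6.33% of all genes. None of them passed after adjustment.

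RBFOX2 had effective lengths of 4019, 3524 and 3502 bases in siMatrin3 libraries, against 4258, 4299 and 4217 bases in siCTRL libraries. The siCTRL libraries lay close together (SD 41.0 bases), and the means differed by -576.7 bases (log2 difference -0.21 ± 0.06 SE, limma adjusted p = 0.575). This log2 difference in length had the sign and size of the log2 difference in reads. TPM overlapped between the groups as given above. On log2(TPM + 1) RBFOX2 was at -0.10 (limma adjusted p = 0.608), against 0.00 in edgeR with the offset. TPM and CPM also differ in their scaling between libraries, so TPM is not a correction of CPM for length alone. Annotated RBFOX2 isoforms run from 663 to 7224 bases.

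MBNL3 had the largest difference in length of the 8. Its effective length was 5340.3, 4339 and 6146 bases in siMatrin3 libraries, against 9065, 8073 and 6683 bases in siCTRL libraries, a difference of -2666 bases (log2 difference -0.59 ± 0.17 SE, limma adjusted p = 0.587). Reads of MBNL3 did not pass the test, as given above, and its level lay at 2.44, 3.38 and 2.18 TPM in siMatrin3 libraries, against 1.71, 2.03 and 1.76 TPM in siCTRL libraries. The TPM groups did not overlap (exact permutation p = 0.1), and the fit with effective length as an offset gave 0.61 (95% confidence interval 0.16 to 1.06, adjusted p = 0.163). MBNL3 rested on 89 to 98 expected counts in siMatrin3 libraries and 64 to 138 in siCTRL libraries, the fewest of the 8, and its annotated isoforms run from 891 to 12302 bases.

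MBNL1 had effective lengths of 2655, 2731 and 2614 bases in siMatrin3 libraries, against 2775, 2824 and 2807 bases in siCTRL libraries. All siMatrin3 values were shorter, with a mean difference of -135 bases (log2 difference -0.07 ± 0.02 SE, limma adjusted p = 0.624). Which isoforms make up these lengths cannot be read from a mean over them.

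The other 5 overlapped in effective length. CELF1 had 3828, 3604 and 3041 bases in siMatrin3 libraries, against 3745, 3672 and 3868 bases in siCTRL libraries. siMatrin3 replicate 3, the shortest, was also the one with the high TPM of 63.2. QKI had 2412, 2365 and 3492 bases in siMatrin3 libraries, against 2735, 2687 and 2788 bases in siCTRL libraries. Here too siMatrin3 replicate 3 stood apart, with the longest length and the lowest level of 11.03 TPM, where the other siMatrin3 libraries had 15.9 and 16.2 TPM and the siCTRL libraries 15.3 to 16.3 TPM. MBNL2 ranged from 2949.8 to 3433 bases in siMatrin3 libraries and from 2687 to 3342 bases in siCTRL libraries, ESRP1 from 2708 to 2948 bases in siMatrin3 libraries and from 2412 to 2859 bases in siCTRL libraries, and ESRP2 from 2068 to 2481 bases in siMatrin3 libraries and from 2193 to 2337 bases in siCTRL libraries.

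**Figure D3:**
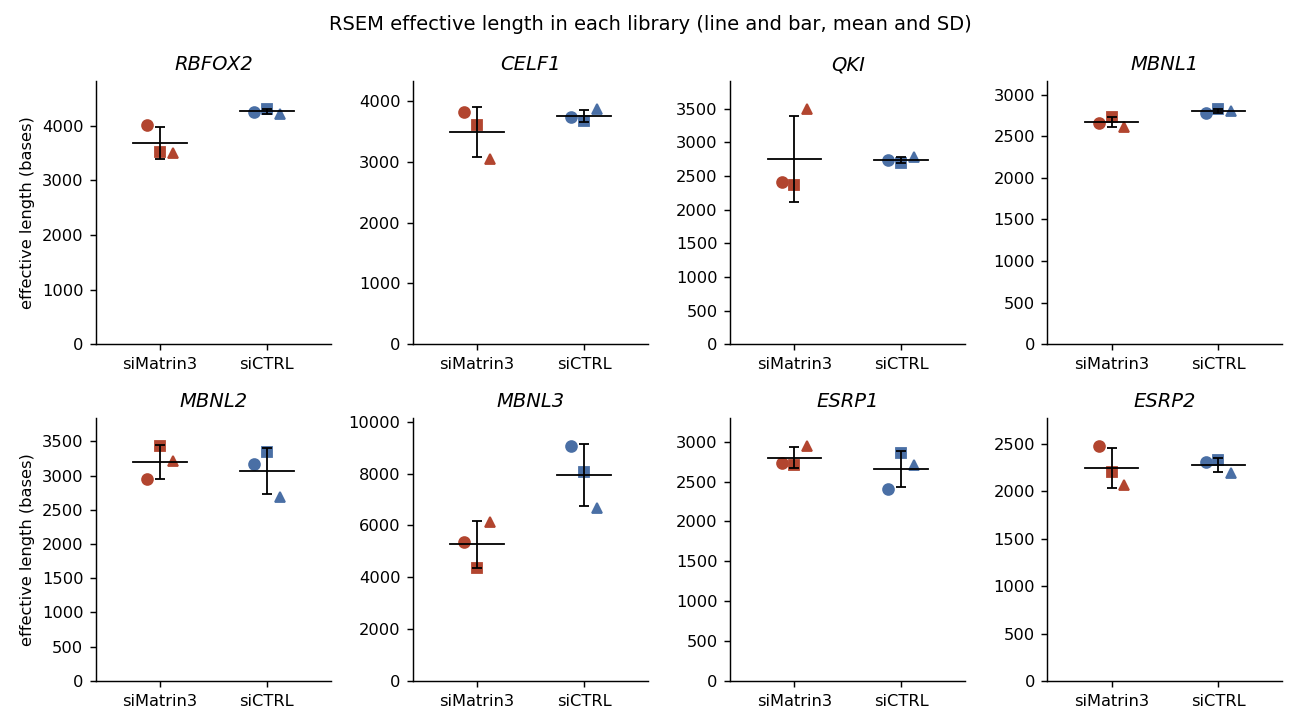
RSEM effective length in bases (vertical axis, from 0) of the 8 regulators in each siMatrin3 library (left, red) and siCTRL library (right, blue), with the mean and SD of 3 libraries. RBFOX2, MBNL1 and MBNL3 were shorter in every siMatrin3 library, with mean differences of -576.7, -135 and -2666 bases, and siMatrin3 replicate 3 stood apart from its replicates in CELF1 and QKI.

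With effective length as an offset in edgeR, 1.42% of all genes (204) passed and none of the 8 regulators did. At an unadjusted p under 0.05, CELF1 (-0.23), MBNL1 (0.27), MBNL3 (0.61) and ESRP2 (0.33) did, as did 16.5% of all genes.

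Levels of the 8 can be ordered per length. In siMatrin3 libraries the mean order was MBNL1 at 75.9 ± 6.66 TPM, CELF1 at 54.8 ± 7.21, ESRP1 at 44.6 ± 2.53, RBFOX2 at 33.7 ± 2.89, ESRP2 at 24.7 ± 2.82, QKI at 14.4 ± 2.90, MBNL2 at 14.0 ± 1.13 and MBNL3 at 2.67 ± 0.63 TPM (SD, n = 3). Neighbours in that order had separate ranges except QKI and MBNL2. In siCTRL libraries CELF1 stood first at 69.1 ± 1.01 TPM and MBNL1 next at 67.7 ± 8.54 TPM, with overlapping ranges, and the rest kept their places at 46.1 ± 3.76 for ESRP1, 36.3 ± 2.08 for RBFOX2, 21.1 ± 0.30 for ESRP2, 16.0 ± 0.57 for QKI, 13.3 ± 0.59 for MBNL2 and 1.83 ± 0.17 TPM for MBNL3 (SD, n = 3). The order of CELF1 and MBNL1 was thus clear in siMatrin3 libraries, with MBNL1 at 69.7 to 82.9 TPM above CELF1 at 50.6 to 63.2 TPM, and not in siCTRL libraries.

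**Figure D4:**
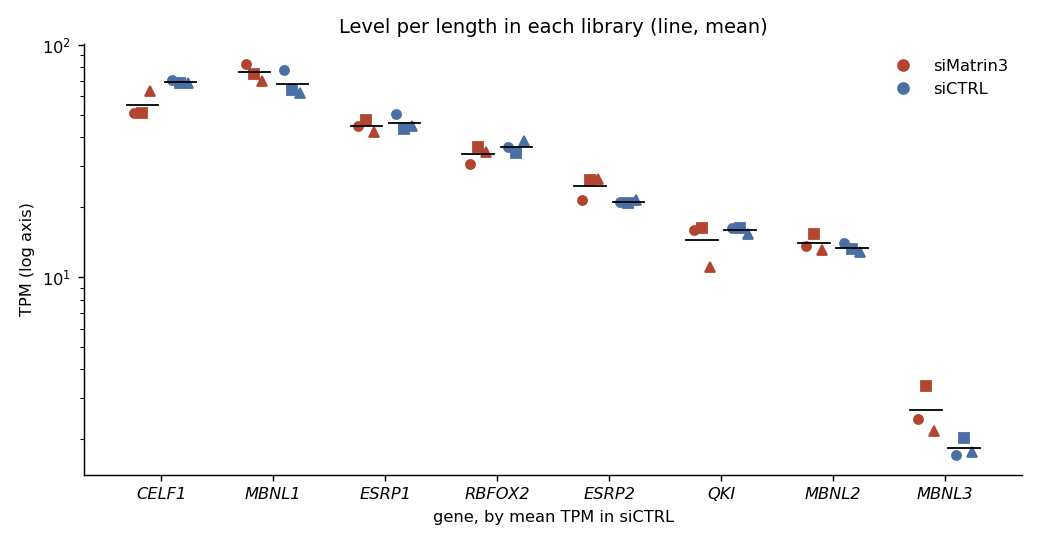
TPM (log axis) of the 8 regulators in each siMatrin3 library (left of each pair, red) and siCTRL library (right, blue), ordered by mean TPM in siCTRL, with a line at the mean of 3 libraries. CELF1 lay at 50.6 to 63.2 TPM in siMatrin3 libraries and 68.5 to 70.2 TPM in siCTRL libraries, and MBNL3, the lowest, at 2.18 to 3.38 TPM in siMatrin3 libraries and 1.71 to 2.03 TPM in siCTRL libraries.

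Summed over a family, the ranges of the groups overlapped for both families. The 3 MBNL genes summed to 98.9, 93.7 and 84.9 TPM in siMatrin3 libraries and 93.2, 78.9 and 76.5 TPM in siCTRL libraries (exact permutation p = 0.2). Between libraries of the same number the MBNL sum was higher in siMatrin3 cells by 5.71, 14.8 and 8.44 TPM (exact paired p = 0.25, the smallest that 3 pairs allow). MBNL1 made up 80.1% to 83.8% of that sum in siMatrin3 libraries and 80.8% to 83.1% in siCTRL libraries. The ESRP pair summed to 66.0, 73.4 and 68.5 TPM in siMatrin3 libraries and 71.5, 64.2 and 65.9 TPM in siCTRL libraries (exact permutation p = 0.5, paired 0.75).

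Within the ESRP pair, the TPM of ESRP2 was 0.48, 0.56 and 0.63 times that of ESRP1 in siMatrin3 libraries, against 0.42, 0.48 and 0.48 times in siCTRL libraries. The ranges overlapped at their ends, and the mean log2 ratio differed by 0.26 (exact permutation p = 0.2, adjusted over 3 ratios 0.45). On CPM the same ratio did not overlap, at 0.44, 0.45 and 0.44 in siMatrin3 libraries and 0.40, 0.39 and 0.39 in siCTRL libraries (log2 difference 0.17, exact permutation p = 0.1, adjusted over 3 ratios 0.3). The log2 ratio of MBNL2 over MBNL1 differed by -0.11 on TPM (exact permutation p = 0.5) and that of MBNL3 over MBNL1 by 0.35 (p = 0.3). Both turned sign on CPM, to 0.03 and -0.17.

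Of 41 other splicing regulators and RNA-binding proteins, not all of them tissue-type, 27 were high enough to test. None was higher in siMatrin3 cells (1 at an unadjusted p under 0.05, none by DESeq2) and 3 were lower, with a median log2 fold change of -0.05. Of all genes tested, 5.68% were higher and 5.18% lower. The 14 of the 41 that were not tested, among them the neuronal and muscle paralogues RBFOX1, RBFOX3, CELF2, CELF3 and CELF4, were at 0.74 TPM or less in every library, and NOVA1, ELAVL4 and KHDRBS2 were listed at 0 throughout. RBFOX2 and CELF1 therefore stood as the measurable members of their families, apart from CELF5 at 2.09 ± 0.40 CPM in siMatrin3 libraries and 2.42 ± 0.15 CPM in siCTRL libraries. ZMAT3, a p53-induced RNA-binding protein, averaged 37.2 ± 1.03 CPM in siMatrin3 libraries and 57.3 ± 3.73 CPM in siCTRL libraries (SD, n = 3 each), a log2 fold change of -0.62 (edgeR adjusted p = 0.00038). RBMS1 averaged 20.7 ± 2.81 CPM in siMatrin3 libraries and 32.7 ± 1.01 CPM in siCTRL libraries (-0.66, adjusted p = 0.00203), and MSI2, a Musashi protein of stem and progenitor cells, 133 ± 6.96 CPM in siMatrin3 libraries and 171 ± 14.7 CPM in siCTRL libraries (-0.36, adjusted p = 0.00545). These 3 calls were kept without any single library. They were lost on both TPM scales and with effective length as an offset (adjusted p = 0.0952 for ZMAT3, 0.0614 for RBMS1 and 0.156 for MSI2). With the replicate block 6 of the 27 were lower, by adding PCBP1, RBM47 and ZFP36L1.

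Matrin3's known partner PTBP1, which represses neuronal exons, was at 459 ± 4.03 CPM in siMatrin3 libraries and 458 ± 17.7 CPM in siCTRL libraries (SD, n = 3 each), and its fitted log2 fold change was 0.00 ± 0.05 SE. In TPM, which sums to the same total in each library without edgeR's scaling, PTBP1 was lower in every siMatrin3 library. It had 189, 221 and 215 TPM in siMatrin3 libraries and 226, 238 and 232 TPM in siCTRL libraries. Its effective length differed by 0.04 on the log2 scale (limma adjusted p = 0.974). The summed TPM of the 41 genes was 1494 to 1514 in siMatrin3 libraries and 1687 to 1717 in siCTRL libraries, of which PCBP2 alone gave 332 to 345 TPM in siMatrin3 libraries and 378 to 394 TPM in siCTRL libraries. On counts PCBP2 was at -0.05 (edgeR adjusted p = 0.547). The part that the scaling of TPM has in the lower sum was not tested.

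Of 26 genes whose exons RBFOX, CELF, MBNL, QKI or ESRP proteins are known to regulate, all were tested, 1 was higher in siMatrin3 cells and 4 were lower, with a median log2 fold change of -0.03. The shares over all genes were 5.68% higher and 5.18% lower. The values of the 26 are levels of the whole gene and not of the exons. CD44, a surface receptor with ESRP-dependent variable exons, averaged 533 ± 44.2 CPM in siMatrin3 libraries and 396 ± 30.9 CPM in siCTRL libraries (SD, n = 3 each), a log2 fold change of 0.42 (edgeR adjusted p = 0.00205). SLK, a kinase (-0.32, adjusted p = 0.00606), CTNND1, which encodes p120 catenin (-0.24, adjusted p = 0.0154), FOXP1, a transcription factor (-0.87, adjusted p = 0.0165), and ESYT2, a membrane tether (-0.28, adjusted p = 0.0377), were lower. Calls for CD44 and SLK were kept without any single library. That of CTNND1 was lost without siCTRL replicate 3 or siMatrin3 replicate 1 or 3 (adjusted p 0.0574 to 0.0841), that of FOXP1 without siCTRL replicate 1 or 2 or siMatrin3 replicate 1 (0.0517 to 0.0576), and that of ESYT2 without any library but siCTRL replicate 1 (0.0531 to 0.177). With the length offset the adjusted p of these 5 genes was 0.0573 to 0.421, and none of the 5 passed on either TPM scale. With the replicate block ITGA6 and SCRIB were lower as well. None of the 26 passed in effective length, and ENAH, OSBPL3 and NUMB had an unadjusted p under 0.05, as did 6.85% of all genes.

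**Figure D5:**
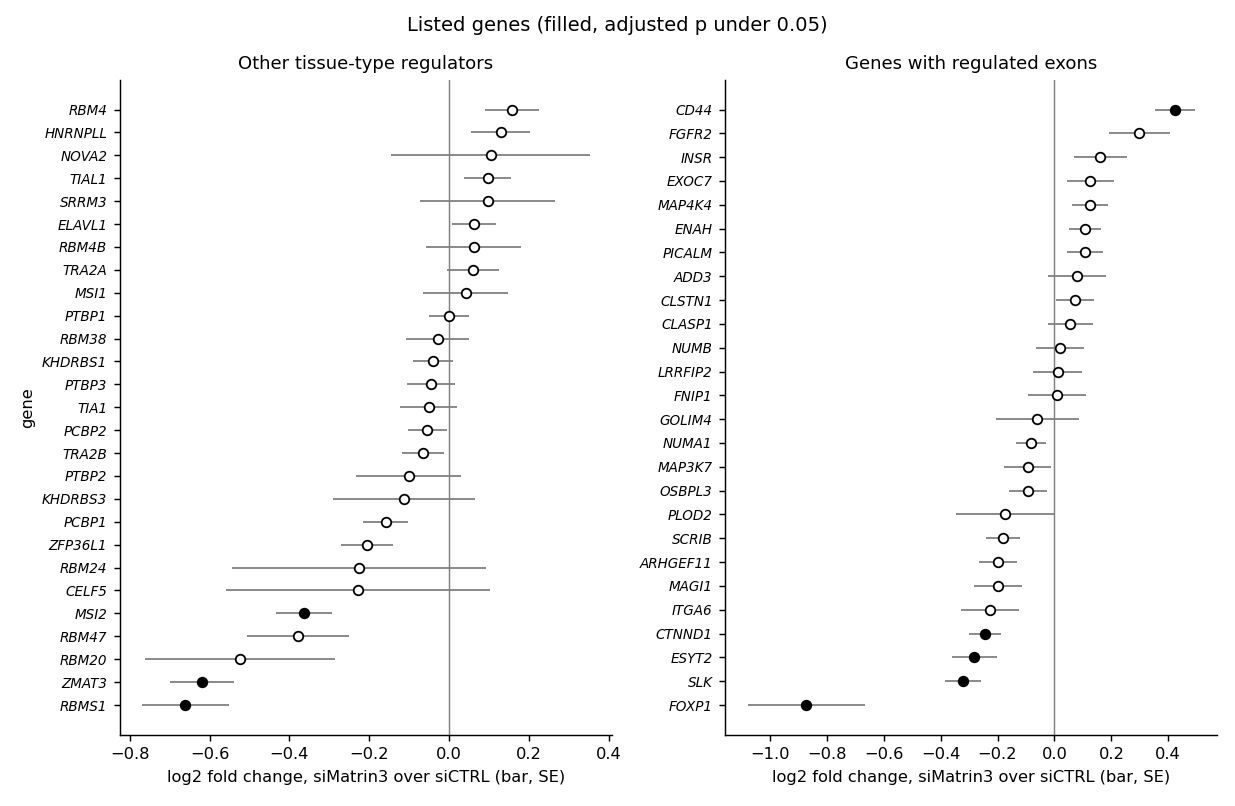
Log2 fold change of siMatrin3 over siCTRL (points, edgeR on counts) with its SE (bars). Shown are the 27 other splicing regulators and RNA-binding proteins that could be tested (left) and the 26 genes with regulated exons (right). Filled points passed at an adjusted p under 0.05, which are RBMS1, ZMAT3 and MSI2 on the left and FOXP1, SLK, ESYT2, CTNND1 and CD44 on the right.

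Because ESRP levels mark the epithelial state, transcription factors of that state and cell type markers were set beside them. Of 18 factors of the epithelial to mesenchymal switch, 10 were tested and none passed (1 at an unadjusted p under 0.05, none by DESeq2). The lowest p belonged to EHF, an epithelial ETS factor, at 5.05 ± 0.81 CPM in siMatrin3 libraries and 2.78 ± 0.54 CPM in siCTRL libraries (SD, n = 3 each), with a log2 fold change of 0.83 (edgeR adjusted p = 0.0877), and to HNF4A (0.42, adjusted p = 0.296). ZEB1, a repressor of ESRP genes, was at 0.25 (adjusted p = 0.604). Of 14 epithelial markers, 10 were tested, EPCAM (0.28, adjusted p = 0.0183) and KRT19 (0.23, adjusted p = 0.0106) were higher and none was lower, beside 5.68% higher and 5.18% lower over all genes. With the replicate block KRT8 was higher as well. The calls for EPCAM and KRT19 were lost with effective length as an offset (adjusted p = 0.105 for EPCAM and 0.118 for KRT19) and on both TPM scales. The call for EPCAM was also lost without siCTRL replicate 3 or siMatrin3 replicate 2 or 3 (0.0542 to 0.0872). The 14 summed to 1280 to 1296 TPM in siMatrin3 libraries and 1208 to 1287 TPM in siCTRL libraries.

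Mesenchymal markers were low in both groups. Of 12, 6 were listed at 0 TPM throughout (CDH2, COL1A2, COL3A1, DCN, LUM and FAP), 5 were tested and none passed (1 at an unadjusted p under 0.05, none by DESeq2), with ACTA2 (-0.68, adjusted p = 0.191) and FN1 (-0.26, adjusted p = 0.205) at the lowest p. They summed to 19.8 to 21.0 TPM in siMatrin3 libraries and 20.2 to 24.2 TPM in siCTRL libraries. None of 7 blood markers could be tested, with CD3E and HBB at 0 and a sum of at most 0.92 TPM in siMatrin3 libraries and 1.16 TPM in siCTRL libraries. Of 7 neural markers, 4 were tested and MAP2 was lower (-0.74, edgeR adjusted p = 0.0464). Its call was lost by DESeq2, with effective length as an offset (edgeR adjusted p = 0.152) and on both TPM scales. It was also lost with a filter of at least 1 CPM in 3 libraries. Leaving out siCTRL replicate 2 or 3 or siMatrin3 replicate 1 or 3 lost it too (0.101 to 0.202). MAP2 was joined by TUBB3 with the replicate block. Over all genes 5.18% were lower. The neural list summed to 66.6 to 72.6 TPM in siMatrin3 libraries and 79.4 to 92.5 TPM in siCTRL libraries, with no overlap. TUBB3 alone gave 38.64 to 45.09 TPM in siMatrin3 libraries and 49.7 to 59.55 TPM in siCTRL libraries. On counts without the block TUBB3 did not pass (-0.29, edgeR adjusted p = 0.0702), and its CPM values overlapped between the groups. The part that the scaling of TPM has in the lower neural sum was not tested. The part of the neural list in the regulators' values was not tested.

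The genes whose log2 CPM ran most closely with the 3 regulators that passed were searched among 11456 genes of at least 5 CPM. Over the 6 libraries, ZBTB39, ARID2 and ARL6IP6 were the most alike to RBFOX2 (Pearson's r 0.996, 0.996 and 0.995), MAPK8, HACD2 and PSD3 to CELF1 (0.999, 0.998 and 0.996), and MKRN2 and CDR2L to ESRP2 (0.999 and 0.998). The 6 points share the split between the groups and the library totals, so values near 1 are a description only.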

How the data were processed

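The values come from 6 libraries, 3 of each group. For samples taken at 48 h the methods state rRNA depletion, TRIzol and single-end reads, while the labels name a stranded mRNA kit. Per the submitters' processing notes the authors used cutadapt, TopHat and RSEM with hg19. The annotation release was not given in the sources used here, nor was the strand setting, so reads of overlapping genes and of near-identical paralogue stretches are shared by estimate. The deposited expected counts are RSEM estimates with no scaling, the authors' TPM sums to the same total in each library, and the authors' effective length is in bases. FPKM was not used. Per the files, depth was 4556658 to 8400412 counts, and precision is limited by depth most for MBNL3.

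Symbols and hg38 positions were joined by ID from GENCODE 44 (99.3% of IDs matched), and exon sequences were cut from its transcripts. Expected counts were rounded, filtered by filterByExpr (minimum count 10, minimum total 15), scaled by TMM and compared with the quasi-likelihood test of edgeR 4.0.16 under R 4.3.3, and p-values were adjusted over 14334 genes (Benjamini-Hochberg, 0.05). Effective lengths were tested on the log2 scale by limma 3.58.1 (trend on mean log2 count) over 12268 genes. Single values were compared by exact two-sided permutation tests, with 0.1 as the smallest p for 3 against 3. Alternatives were other scalings and filters, an effective length offset, DESeq2 1.42.0, log2(TPM + 1) and log2(TPM + 0.1) in limma, a replicate block and leaving out each library. Pairing was checked by the correlation of deviations from group means, which was 0.107, 0.104 and 0.157 for same-numbered libraries and -0.0842 to -0.0238 for others. Deviations from a group mean cancel within the group, so the negative values are tied to the positive ones and are not separate evidence. These small correlations do not settle whether the libraries are paired. Pairing by the replicate numbers in the titles was an assumption, made in the replicate block and the paired tests only. The main fits and the permutation tests used the group alone. The 8 regulators, the 7 other gene lists and the tests were chosen with earlier results of these data known. Named genes are MATR3, the 8 regulators, every list member past the threshold or, where none passed, the 2 with the lowest p, and the 3 genes most alike to each regulator that passed, of which 1 is not reported here. PTBP1, PCBP2, ZEB1, KRT8, CELF5, untested or overlapping genes, list genes called only with the block and genes with a low unadjusted p in effective length were named after their values were seen.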

Additional observations from a re-analysis of the deposited data

How the results depend on the processing

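CELF1, MBNL1, MBNL2, QKI, ESRP2 and MATR3 kept their direction under all 16 alternatives on counts and TPM, and MATR3 its call in all 16. Of the regulators, 1 was higher and 2 lower in the fit reported. With no filter 2 were higher and 1 lower, with the replicate block 2 were higher, with DESeq2 0 were higher and 1 lower, and with the effective length offset and both TPM scales 0 were higher and 0 lower. Leaving out 1 library gave 0 to 2 higher and 1 to 2 lower. The replicate block changed no other call among the 8. Over all genes, 814 were higher and 743 lower in the fit reported. These calls became 1203 and 1056 with the block, 1105 and 874 with no filter, and 99 and 105 with the offset. They became 31 and 118 on log2(TPM + 1), 30 and 102 on log2(TPM + 0.1), and 548 and 463 by DESeq2. Without 1 library, 350 to 631 genes were higher and 357 to 625 lower. Effective length called 0 to 1 shorter genes without 1 library and otherwise 0. Signs turned for RBFOX2 with the offset (0.00024), for MBNL3 with upper quartile scaling (-4.3e-05) and without 1 library (-0.13 to 0.14), for ESRP1 on log2(TPM + 1) (-0.043) and log2(TPM + 0.1) (-0.044), for MBNL2 over MBNL1 (0.031) and MBNL3 over MBNL1 (-0.17) on CPM, and in effective length without 1 library for MBNL2 (-0.027 to 0.13), QKI (-0.20 to 0.085) and ESRP2 (-0.095 to 0.037). In the paired test of within-pair differences the log2 ratios differed by 0.26 for ESRP2 over ESRP1, -0.11 for MBNL2 over MBNL1 and 0.35 for MBNL3 over MBNL1, each with 1 sign in all 3 pairs (exact p = 0.25 each, the smallest that 3 pairs allow). The paired test of the family sums was chosen after seeing the data. The cause of these changes was not tested, except that leaving out a library leaves fewer samples. MBNL3, with 64 to 138 expected counts a library, is the regulator whose depth limits it most.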
